A study of Mus musculus with 10 samples.

Results

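Type I interferon response genes were followed in single cells of mouse lymph nodes. The set held 31 genes taken from a list of names, and 29 of them were matched by symbol among the 32285 genes of the count matrices. Mx1 and Mx2 were not analysed here. By role, 14 of the 29 were antiviral effectors (Ifit1, Ifit2, Ifit3, Ifit3b, Isg20, Oas1a, Oas2, Oas3, Oasl1, Oasl2, Rsad2, Bst2, Cmpk2 and Ifitm3). A further 3 were transcription factors of the response (Irf7, Irf9 and Stat2), 3 were sensors of nucleic acids (Ifih1, Dhx58 and Zbp1), and 2 belonged to the pathway of the ubiquitin-like protein ISG15 (Isg15 and Usp18). The other 7 were Rtp4, Ifi44, Trim30a, Xaf1, Ifi27l2a, Ifi35 and Parp14.

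Type I interferons are secreted proteins that bind a receptor present on nearly all cells. The receptor activates JAK kinases, and the signal is carried to the nucleus by a protein complex that holds STAT2 and the DNA-binding factor IRF9. This complex binds a short DNA element in front of its target genes and switches them on together, so the transcripts of these genes are used as a readout of interferon exposure. In a lymph node the response limits virus spread, shapes antigen presentation and sets the state of resident stromal, myeloid and lymphoid cells.

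The study profiled axillary lymph nodes of female BALB/c wild-type mice aged 8 weeks with droplet single-cell RNA sequencing that counts the 3′ ends of transcripts. Mice carried 4T1 mouse mammary carcinoma cells, which metastasise, or 67NR cells, which do not, for 18 days in the fourth mammary fat pad, with a tumour endpoint of 500 mm3. Both lines derive from a single BALB/c mammary tumour. Other mice were given a subcutaneous injection of lipopolysaccharide (LPS), a bacterial cell wall component, for 72 hours, and naive mice were untreated. The labels mention mice given LPS and poly(I:C) in the injection step and do not say whether the LPS group was also given poly(I:C), a synthetic double-stranded RNA that induces type I interferon, so LPS results below are those of the group as labelled.

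There were 5 gene libraries. In 3 of them, conditions were pooled and told apart by hashtag antibodies: a stromal library (4T1, 67NR, LPS and naive), a myeloid and stromal library and a T cell library (both 4T1, 67NR and naive). The other 2 were atlases of naive axillary and naive mediastinal nodes. At least 3 mice entered each condition, but cells could not be assigned to mice, so each condition and cell group gave 1 sum of UMIs (unique molecular identifiers, 1 for each captured transcript) per library, with no replicate. Differences between such sums are therefore given with intervals that cover counting error only, and with no test. Comparisons of 4T1 with naive and of 67NR with naive share the same naive cells.

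After filters, 2350, 5412 and 7210 cells remained in the stromal, the myeloid and stromal and the T cell library, and 10635 and 25148 in the axillary and mediastinal atlases. Total UMIs ranged over the 5 libraries from 32804838 in the stromal library to 105857092 in the T cell library. Cell groups were rebuilt by clustering without interferon genes and named from marker genes. Markers from the naming lists were higher in their groups, by unlike margins. Endothelial Cdh5 stood at 661 UMIs per 1000000 UMIs of the sum (CPM) in blood endothelial-like cells against 6.08 CPM in the other cells. B cell Cd79a stood at 1454 against 7.55 CPM, and natural killer receptor Ncr1 at 271 against 0.347 CPM. Margins were smaller for Pdgfra in stromal library fibroblast-like (363 against 89.6 CPM) and Ccr2 in monocyte-like cells (606 against 91.3 CPM). The same held for Cd4 in CD4 T-like (427 against 66.4 CPM) and Cd8a in CD8 T-like cells (325 against 93.6 CPM). As these genes named the groups, their separation is no test of the names. In the mediastinal atlas the large clusters mixed T and B cell genes, and the doublet caller marked 0 cells there.

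The promoters of several members carry letters that match the core of the interferon-stimulated response element. The RefSeq promoter table of GRCm38.p6 held 22 of the 31 members. The letters GAAA, any 2 bases and GAAA again were sought in the 250 bases before the start, on either strand with overlaps allowed. A gene was counted if any of its listed starts had them. They were present in 10 of these 22 genes (45.5%), against 936 of 27025 genes of the table (3.46%). The 10 were Isg15, Oas3, Oas1a, Trim30a, Bst2, Stat2, Rsad2, Ifit3, Ifit3b and Ifit1. The letters were not found in this window for Ifih1, Ifi44, Oasl2, Oasl1, Isg20, Ifitm3, Irf7, Xaf1, Ifi35, Cmpk2, Irf9 and Ifit2. The other members, Mx1, Mx2, Oas2, Rtp4, Zbp1, Usp18, Dhx58, Ifi27l2a and Parp14, were left out of this count.

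The windows below are from genes whose values recur in the comparisons, with the motif in capitals, printed 5′ to 3′ on the strand of the gene; where the motif lies on the other strand it appears as its reverse complement. Isg15 lies at chr4:156200865-156200906 (minus strand) with 3 overlapping matches, Bst2 at chr8:71537577-71537612 (minus strand) with 2, and Rsad2 at chr12:26456553-26456582 (minus strand). Ifit3 lies at chr19:34583363-34583426, Ifit3b at chr19:34607759-34607822 and Ifit1 at chr19:34640775-34640823, all on the plus strand.
Isg15: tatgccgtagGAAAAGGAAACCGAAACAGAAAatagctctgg
Bst2: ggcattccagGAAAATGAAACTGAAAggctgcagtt
Rsad2: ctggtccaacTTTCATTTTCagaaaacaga
Ifit3: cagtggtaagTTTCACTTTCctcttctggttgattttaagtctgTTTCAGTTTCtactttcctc
Ifit3b: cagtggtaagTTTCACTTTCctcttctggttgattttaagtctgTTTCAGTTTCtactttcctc
Ifit1: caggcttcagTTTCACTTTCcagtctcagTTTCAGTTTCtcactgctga
The Ifit3 and Ifit3b windows were identical at 64 of 64 bases. Ifit3 and Ifit3b are near-identical neighbours, so reads of one can be counted for the other. Ifit1, Oas1a, Trim30a and Ifi27l2a also have close paralogs, and their counts carry the same uncertainty. A match of the letters is a description of the sequence and not a bound site.

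The summed share of the 29 members was 0.559% of stromal library UMIs and 0.616% for the myeloid and stromal library. It was 0.290% for the T cell library, and the atlases held 0.120% (axillary) and 0.108% (mediastinal). A few genes carried most of it. Ifitm3, a membrane protein that blocks virus entry, gave 46.9% of the member UMIs of the stromal library and 29.9% of those of the myeloid and stromal library. Ifi27l2a, a small interferon-induced protein, gave 69.1% for the T cell library, and 38.7% and 52.3% for the axillary and mediastinal atlases. Summed shares thus follow these abundant genes, while medians over members weight each gene equally. Both are given for most cell groups below, and they can differ in sign.

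In naive nodes the members were most abundant in phagocytes of the myeloid and stromal library and among the least abundant in B cells, natural killer cells and gamma-delta T cells. The share was 1.32% in neutrophil-like cells (95% Poisson interval 1.31 to 1.34%), 1.30% in an unnamed cluster led by Lyz2 and Cybb, and 1.18% (1.16 to 1.19%) in monocyte-like cells. The intervals of the first 2 overlapped. Macrophage-like cells followed at 0.675%, while the 51 macrophage-like cells of the axillary atlas had 0.184%. The 2 pooled clusters with lymphatic endothelial markers stood at 0.653%, fibroblast-like cells at 0.520% and 0.455% in the 2 libraries that hold them, and blood endothelial-like cells at 0.513%. Conventional type 2 dendritic-like cells (cDC2-like) had 0.274%. Migratory dendritic-like cells had 0.116% here and 0.0988% among axillary atlas cells.

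Among lymphocytes, regulatory T-like cells held more than other T-like cells in both axillary libraries. Their share was 0.361% in the T cell library and 0.265% in the axillary atlas, against 0.235% and 0.130% in other T-like cells of the same libraries. CD4 T-like cells had 0.293% and 0.182%, and CD8 T-like cells 0.224%. B-like cells had 0.104% (myeloid and stromal library), 0.0894% (axillary atlas) and 0.0600% (mediastinal atlas). NK-like cells had 0.184% (myeloid and stromal library) and 0.0825% (axillary atlas). Gamma-delta T-like cells (0.0773%), cDC1-like cells (0.0945%) and innate lymphoid (ILC-like) cells (0.0950%) of the axillary atlas were in the same low range. Depth per cell differed between libraries, with median UMIs of 6435 in the axillary and 2272 in the mediastinal atlas, so levels set across libraries are side by side values only.

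**Figure D1:**
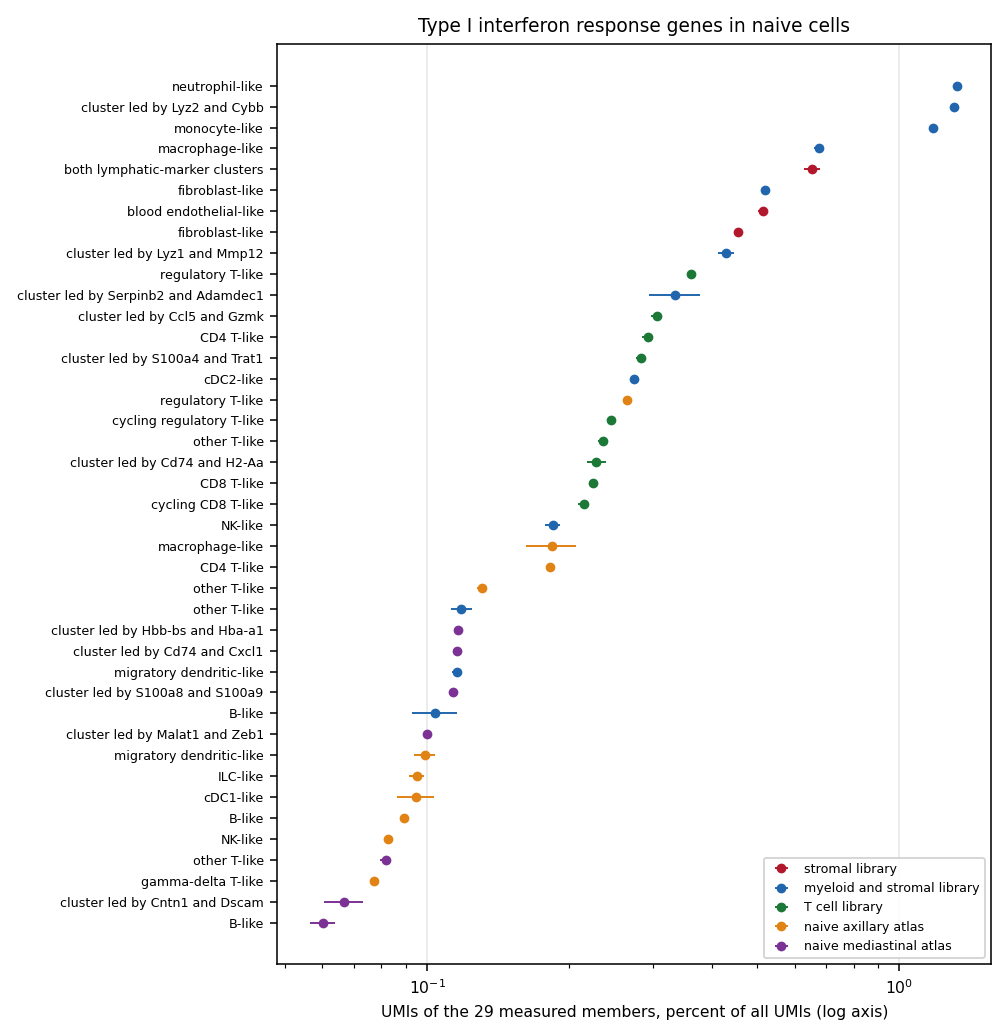
Percent of all UMIs that came from the 29 measured members in naive cells of each cell group, on a log axis, with 95% Poisson intervals and colours for the library. Neutrophil-like (1.32%) and monocyte-like cells (1.18%) lie at the top, and the B-like cells of the mediastinal atlas (0.0600%) at the low end.

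Different genes made up the naive level in different cells. Naive neutrophil-like cells had Isg15, the ubiquitin-like modifier, at 3441 CPM and Rsad2, which encodes the antiviral enzyme viperin, at 999 CPM. The chaperone gene Rtp4 stood at 636 CPM and the exonuclease gene Isg20 at 539.8 CPM in the same cells, next to Ifi27l2a (2614 CPM) and Ifitm3 (1621 CPM). In naive cells of the myeloid and stromal library, 28 members had at least 50 UMIs in the group where their CPM was highest. Of these, 13 were highest in neutrophil-like, 8 in monocyte-like and 3 in Lyz2 and Cybb cells. Members pass this limit through the group where they are high, and groups with more UMIs pass it more easily. The count is therefore a description only.

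Naive monocyte-like cells were led by Ifitm3 (3635 CPM) and Ifi27l2a (3537 CPM), with Isg15 at 699 CPM and Irf7, the factor that amplifies interferon production, at 615 CPM. Bst2, the tetherin that holds budding virus at the membrane, stood at 501 CPM, and Ifi44 at 417 CPM. Lymphatic-marker cells had Ifitm3 at 2899 CPM, Ifi27l2a at 1112 CPM, Bst2 at 645 CPM and Parp14, an ADP-ribosyltransferase, at 502 CPM. Naive blood endothelial-like cells were led by Ifitm3 (2687 CPM) and Bst2 (530.1 CPM), then Parp14 (238 CPM) and Isg15 (182 CPM), with Ifi27l2a at 168 CPM. Of members with at least 50 UMIs in their highest group, only Rsad2 was over 5 times higher there than in the library's next group. Rsad2 stood at 59.9 CPM in blood endothelial-like against 3.50 CPM in fibroblast-like cells of the stromal library.

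Lymphoid cells were dominated by Ifi27l2a. It reached 2572 CPM in naive regulatory T-like cells of the T cell library and 1882 CPM in those of the axillary atlas, where CD4 T-like cells had 1062 and B-like cells 478 CPM. NK-like cells of the axillary atlas were led instead by Irf7 at 160.0 CPM, and migratory dendritic-like cells by Bst2 at 189 CPM. Gamma-delta T-like cells had Isg15 at 119 CPM and Bst2 at 112 CPM.

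A member was counted as measured in a comparison with at least 50 UMIs in the 2 sums together, and as higher or lower at 1.5-fold. Among groups with at least 10 measured members, most were higher than in naive mice in blood endothelial-like and lymphatic-marker cells of the LPS group. Most were lower in fibroblast-like cells of the myeloid and stromal library (4T1 and 67NR), in monocyte-like, neutrophil-like and cycling CD8 T-like cells of 67NR mice, and in 4T1 cells of the T cell library clusters led by Ccl5 and Gzmk and by Cd74 and H2-Aa. In blood endothelial-like cells of 67NR mice and CD4 T-like cells of both tumour groups fewer members passed 1.5-fold, and all that did were higher. Some members pass the UMI limit only through the group in which they are high, so these counts describe the cells and support nothing. Beside the counts of members or listed genes in a comparison stands the percent of all measured genes past 1.5-fold in the same direction. Counts under alternative settings are given without that percent.

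**Figure D2:**
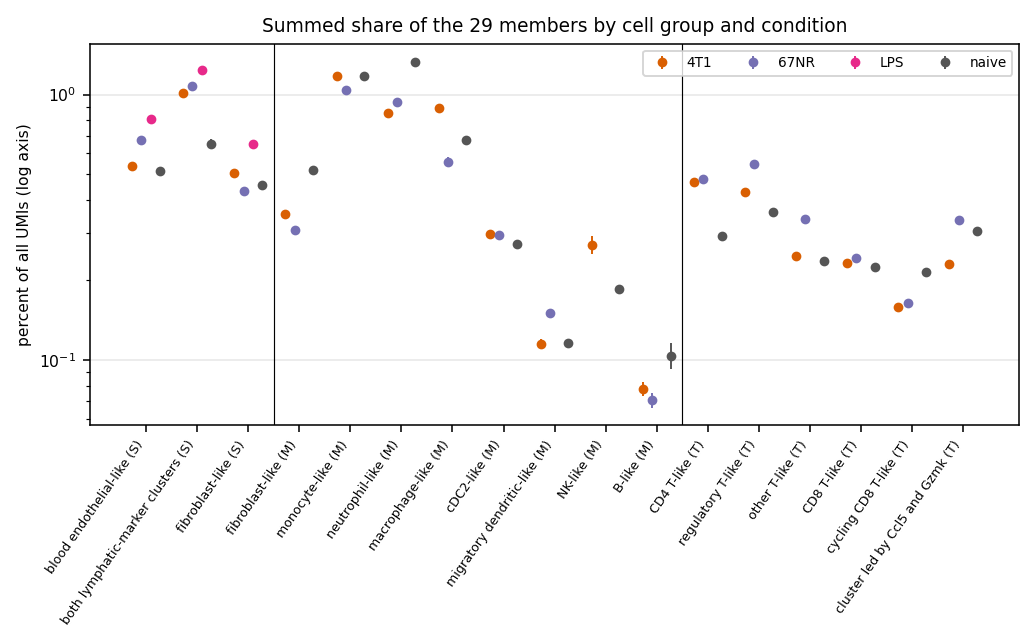
Percent of UMIs from the 29 measured members by cell group and condition, on a log axis, with the library as S (stromal), M (myeloid and stromal) or T (T cell). Blood endothelial-like cells stand at 0.537% (4T1), 0.671% (67NR), 0.805% (LPS) and 0.513% (naive), and CD4 T-like cells at 0.469% (4T1), 0.479% (67NR) and 0.293% (naive).

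In blood endothelial-like cells of the LPS group the members were higher across the set. Their share was 0.805% in 141 LPS cells and 0.513% in 169 naive cells, a ratio of 1.57 (95% interval 1.52 to 1.62). Of 28 members measured, 20 were at least 1.5-fold higher and 0 lower, against 4.73% of all genes measured higher and 6.24% lower. The median log2 ratio over members was 0.85, and -0.02 over all genes.

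The IFIT genes, whose products bind foreign RNA, led this list. Ifit1 stood at 173 CPM in LPS and 36.7 CPM in naive cells, a log2 ratio of 2.24 (1.80 to 2.70). Ifit3b was at 67.6 and 21.9 CPM, Ifit3 at 64.1 and 21.9 CPM, and Ifit2 at 85.6 and 31 CPM in LPS and naive cells. Rsad2 (log2 1.40), Isg15 (1.31) and Irf7 (1.31) came next. At the low end of those past 1.5-fold with an interval excluding no change were Ifih1, the sensor MDA5, at 95 against 57.1 CPM, Rtp4 at 149.7 against 90.9 CPM, Xaf1 at 204 against 134 CPM and Oasl2 at 104 against 69.1 CPM. Ifitm3, the most abundant member, differed by log2 0.37 only.

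The difference was seen in both endothelial clusters with at least 20 cells in each group. In the cluster led by Flt1 and Ccdc85a 16 of 20 members were higher in LPS cells (median log2 0.88; 8.26% of all genes), and in the one led by Flt1 and Plvap 13 of 21 (median 0.86; 7.5%). These clusters were compared after the data had been seen. The summed monocyte markers made up 0.00648% of UMIs in LPS and 0.0194% in naive blood endothelial-like cells, and fibroblast markers 0.0412% and 0.0288%. Median UMIs per cell were 7919 in LPS and 6726 in naive cells. The part of these values in the result was not tested.

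As a pool, lymphatic-marker cells showed the highest ratio in the LPS group, on few cells. These were 24 LPS and 26 naive cells, pooled from 2 clusters after the data had been seen because neither had 20 naive cells. Their share was 1.24% in LPS and 0.653% in naive cells (ratio 1.90, 1.81 to 2.00), with 9 of 15 members higher (13.1% of all genes) and 1 lower (14.8%) and a median log2 ratio of 0.78. Irf7 was at 429 CPM in LPS and 56.4 CPM in naive cells, Zbp1, a sensor of Z-form nucleic acid, at 257 and 88.7 CPM, Ifi27l2a at 2953 and 1112 CPM, and Isg15 at 406 and 159 CPM. Parp14 was the 1 member lower, at 285 in LPS and 502 CPM in naive cells. The pool was made up differently in the 2 groups. The cluster led by Glycam1 and Ccl20 gave 8 LPS and 17 naive cells, with shares of 1.18% and 0.597%. The cluster named lymphatic endothelial-like gave 16 and 9 cells, with shares of 1.29% and 0.830%. The part of this make-up in the pooled ratio was not tested.

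Fibroblast-like cells of the stromal library also had more member UMIs in the LPS group, through fewer genes. The share was 0.650% in 384 LPS and 0.455% in 184 naive cells (ratio 1.43, 1.40 to 1.46). Of 28 members 11 were higher (6.27% of all genes) and 0 lower (8.15%), with a median log2 ratio of 0.36 against -0.02 for all genes. Irf7 was at 141 CPM in LPS and 35.5 CPM in naive cells (log2 1.99) and Ifi27l2a at 1353 and 503 CPM. Ifit1 was at 260.0 and 104 CPM. The highest log2 ratios, of Rsad2 (24 in LPS, 3.50 CPM in naive) and Ifi44 (14.8 in LPS, 2.63 CPM in naive), rest on 8 and 6 naive UMIs.

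Irf9, which encodes the DNA-binding part of the complex that carries the interferon signal, was at 53.2 CPM in LPS and 63.5 CPM in naive fibroblast-like cells. By cluster, the fibroblast-like cells led by Apoe and Dcn had 15 of 24 members higher (7.11% of all genes), those led by Opcml and Pi16 12 of 21 (10.8%), and those led by Mgp and Apod had 8 of 16 higher (18.5%). The cluster led by Apoe and Csmd1 had 1 higher and 3 lower of 12 (10.2% and 15.9% of all genes). The class was made up differently in the 2 groups: the Opcml and Pi16 cluster held 36.2% of LPS and 17.4% of naive fibroblast-like cells, and the Apoe and Dcn cluster 21.9% and 41.3%. The difference between clusters was not tested.

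**Figure D3:**
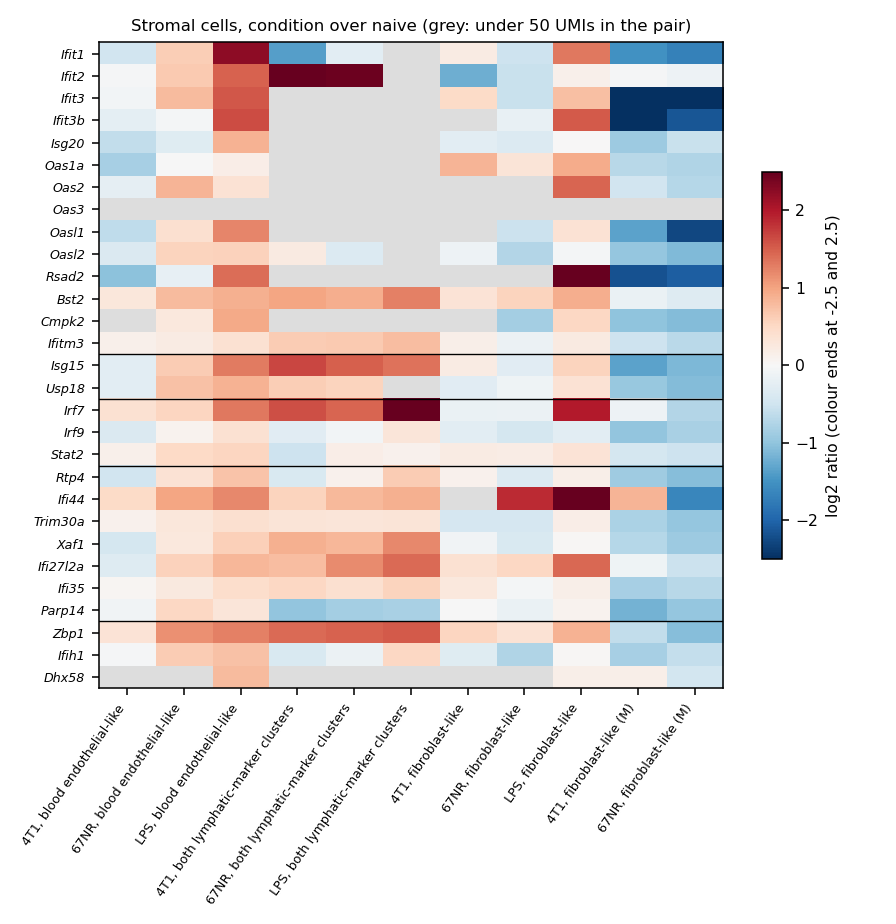
Log2 ratio of each member's CPM in 4T1, 67NR or LPS cells over naive cells, for blood endothelial-like, lymphatic-marker and fibroblast-like cells of the stromal library and fibroblast-like cells of the myeloid and stromal library; grey marks members with under 50 UMIs. The LPS column of blood endothelial-like cells ranges up to 2.24 (Ifit1), and the fibroblast-like columns of the myeloid and stromal library reach -2.61 (Ifit3, 4T1) and -2.58 (Ifit3, 67NR).

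In nodes of 67NR-bearing mice, endothelial members were also higher, by less. Blood endothelial-like cells had a share of 0.671% in 201 67NR cells, a ratio of 1.31 (1.27 to 1.35) over naive, with 10 of 27 members higher (5.52% of all genes) and 0 lower (6.43%). Zbp1 stood at 87.1 CPM in 67NR and 39.5 CPM in naive cells, Ifi44 at 224 and 113 CPM, Oas2, a synthetase that activates RNase L, at 34.2 and 19 CPM, and Bst2 at 919 and 530.1 CPM. Ifit2, Isg15, Ifih1 and Ifit1 followed with log2 ratios of 0.66, 0.63, 0.63 and 0.62.

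Blood endothelial-like cells of 4T1-bearing mice stood near naive cells. Their share was 0.537% (192 cells), a ratio of 1.05 (1.02 to 1.08) over naive. There, 0 of 26 members were higher (4.92% of all genes) and 4 lower (6.37%), with Rsad2 at 29.3 CPM in 4T1 and 59.9 CPM in naive cells and Oas1a, another synthetase, at 15.4 and 27.5 CPM. The median log2 ratio was -0.23, and its sign changed in 2 of 7 alternative settings.

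Set directly against each other, blood endothelial-like cells of 4T1 mice had fewer member UMIs than those of 67NR mice. The ratio of shares was 0.800 (0.780 to 0.821), 16 of 27 members were lower (4.09% of all genes) and 0 higher (3.99%), and the median log2 ratio was -0.69. Ifit1 was at 26.3 CPM in 4T1 and 56.3 CPM in 67NR cells, Oas2 at 16.4 and 34.2 CPM, Oasl1 at 16.9 and 34.2 CPM, and Usp18, the protease that removes ISG15 and dampens the receptor, at 21.8 and 43.5 CPM. Lower members appeared in each endothelial cluster, 5 of 19, 13 of 19 and 7 of 16 in those led by Flt1 and Ccdc85a, Flt1 and Plvap, and Glycam1 and Ubd (6.88%, 6.89% and 8.78% of all genes).

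Lymphatic-marker cells had a higher share in both tumour groups than in naive mice, 1.01% in 4T1 (44 cells) and 1.08% in 67NR (70 cells), against 0.653% in naive. In 4T1 9 of 19 members were higher (12.1% of all genes) and 2 lower (12.2%), and in 67NR 9 of 19 (14.1%) and 1 (8.63%). The median log2 ratio was 0.56 in 4T1 and 0.55 in 67NR. Isg15 was at 502 CPM in 4T1, 448 CPM in 67NR and 159 CPM in naive cells. Irf7 was at 173 CPM in 4T1, 155 CPM in 67NR and 56.4 CPM in naive cells. Zbp1 was near 237 CPM (4T1) and 247 CPM (67NR), against 88.7 CPM in naive cells, and Ifit2 at 95.1 (4T1) and 44.2 CPM (67NR) rests on 3 naive UMIs.

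As in the LPS group, Parp14 was lower in lymphatic-marker cells of both tumour groups, at 255 CPM in 4T1 and 278 CPM in 67NR, against 502 CPM in naive cells. Ifit1 was the other member lower in 4T1, at 29.1 CPM, against 62.8 CPM in 67NR and 75.2 CPM in naive cells. The 2 lymphatic clusters were mixed in unlike numbers, since the cluster led by Glycam1 and Ccl20 gave 22 of the 4T1, 28 of the 67NR, 8 of the LPS and 17 of the naive cells. The share of that cluster was 1.03% in 4T1 and 0.909% in 67NR, against 0.597% in naive cells. The other cluster was the only one named lymphatic endothelial-like. Its share was 0.985% in 4T1 (22 cells) and 1.24% in 67NR (42), against 0.830% in naive cells (9). There, 8 of 15 members were lower in 4T1 than in 67NR (11.1% of all genes), with a median log2 ratio of -0.60.

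Fibroblast-like cells were sampled in 2 hashtagged libraries, and the size of the difference from naive, and for 4T1 its direction, depended on the library. The class was not made up alike. In the myeloid and stromal library it took in a cluster led by Smpd3 and Col3a1. In the stromal library a cluster led by Smpd3 and Fn1 stayed unnamed and was left out (33 4T1, 223 67NR and 7 naive cells). In the myeloid and stromal library their share was 0.354% in 4T1 (204 cells) and 0.310% in 67NR (281 cells), against 0.520% in naive cells (217). In that library 19 of 28 members were lower and 1 higher in 4T1 (11.7% and 6.44% of all genes), and 22 of 28 lower and 0 higher in 67NR (9.86% and 5.8%). In the stromal library the shares were 0.505% in 4T1, 0.434% in 67NR and 0.455% in naive cells. There, 1 member was higher and 1 lower of 21 in 4T1 (7.19% and 7.89%), and 1 higher and 3 lower of 25 in 67NR (9.38% and 6.85%).

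In the myeloid and stromal library, Ifit3 stood at 8.24 CPM in 4T1 and 8.38 CPM in 67NR, against 50.2 CPM in naive fibroblast-like cells. Few cells carried it, since the 5% of cells with most Ifit3 UMIs held 96.7% of them in 4T1, 83.3% in 67NR and 70.0% in naive cells. Ifit3b was at 4.40 CPM (4T1) and 5.79 CPM (67NR), against 25.4 CPM (naive). Rsad2 was at 8.79 CPM (4T1) and 9.58 CPM (67NR), against 39.8 CPM (naive). The difference extended to abundant members, with Isg15 at 112 (4T1) and 130.3 CPM (67NR), against 285 CPM in naive cells.

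Ifit1 in the same cells was at 57.4 CPM (4T1) and 51.1 CPM (67NR), against 164 CPM (naive), and Oasl1, an OAS-like protein that restrains Irf7 translation, at 10.4 and 5.39 CPM, against 26.3 CPM in naive cells. Ifi44 was the 1 member higher in 4T1, at 35.7 CPM, against 6.39 CPM in 67NR and 19.8 CPM in naive cells. In the stromal library, by contrast, Ifit3 was at 35.2 CPM in 4T1 and 17.3 CPM in 67NR, against 25.4 CPM in naive cells, and Isg15 at 198 (4T1) and 140.2 CPM (67NR), against 171 CPM (naive).

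Cluster make-up and other cell types moved with these values. The cluster led by Smpd3 and Col3a1 held 52.9% of 4T1, 37.7% of 67NR and 28.1% of naive fibroblast-like cells of the myeloid and stromal library, and that led by Dcn and Gsn 17.2%, 33.5% and 50.7%. Within the Smpd3 cluster 9 of 23 members were lower in 4T1 (8.82% of all genes) and 14 of 21 in 67NR (10.3%), and within the Dcn cluster 10 of 24 (16.1%) and 18 of 24 (11.1%). The summed monocyte markers made up 0.708% of UMIs in 4T1, 0.617% in 67NR and 0.325% in naive fibroblast-like cells, neutrophil markers 0.108%, 0.332% and 0.226%, and macrophage markers 0.279%, 0.422% and 0.475%. None of the 8 monocyte genes, which include the fibroblast-expressed Fn1, was at 0. Their part in the result was not tested.

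Only fibroblast-like cells had 2 sums for each of 4T1, 67NR and naive, so only they could be tested. The 2 sums were not alike in make-up, since an Smpd3 cluster was part of the class in the myeloid and stromal library only. In edgeR's quasi-likelihood test with the library as a block, on 6 sums and 12840 genes, 0 of 29 members passed an adjusted p of 0.05 in any comparison. Of all genes, 48 were called higher and 23 lower in 4T1 over naive (0.374% and 0.179%), and 65 and 11 in 67NR over naive (0.506% and 0.0857%). In 4T1 over 67NR the calls were 1 and 2. At an unadjusted edgeR p under 0.05, 8 members were lower in 4T1 over naive and 17 in 67NR over naive. In 4T1 over 67NR the count was 0 in either direction. The share of all genes under this unadjusted limit is not given here, so these counts lack a background. At the adjusted limit DESeq2 also called 0 members. The smallest adjusted p among members was that of Oasl2 in 67NR over naive, with a log2 fold change of -0.90 (SE 0.19, edgeR adjusted p = 0.0931).

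Signs in that fit leaned one way. The fitted log2 fold change was negative for 25 of 29 members in 4T1 over naive (median −0.51) and for 27 of 29 in 67NR over naive (median −0.56). The median over all genes tested was -0.01 and -0.02, and the share of all genes below 0 is not given here. Trim30a, which restrains NF-kappaB signalling, had -0.67 (SE 0.16, edgeR adjusted p = 0.126) and Ifit1 -1.14 (SE 0.32, adjusted p = 0.187) in 67NR over naive. Without a filter on low counts edgeR called 1 member higher and 7 lower in 4T1 over naive, and 12 lower in 67NR over naive. Many more genes were called in that setting than with the filter. Of all 22382 genes, 399 were called higher and 341 lower in 4T1 over naive. In 67NR over naive the calls were 532 and 247. Taken per library, the member median was −0.83 in the myeloid and stromal and 0.10 in the stromal library for 4T1 over naive, and −0.93 and −0.29 for 67NR over naive.

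Monocyte-like cells of 67NR mice had fewer member UMIs than naive ones, and those of 4T1 mice about as many. The share was 1.17% in 4T1 (513 cells) and 1.04% in 67NR (216), against 1.18% in naive cells (176). In 67NR over naive 18 of 29 members were lower and 0 higher (6.15% and 3.6% of all genes), with a median log2 ratio of -0.66 against -0.01 for all genes. In 4T1 over naive 4 were lower and 0 higher (8.64% and 8.83%), and these were Rsad2, Ifit3, Ifit1 and Ifit3b, with a median of -0.11.

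Ifit1 stood at 36.2 CPM in 4T1 and 17.2 CPM in 67NR, against 72.8 CPM in naive monocyte-like cells. Rsad2 stood at 107 CPM in 4T1 and 56.2 CPM in 67NR, against 179.8 CPM in naive cells. Isg15 was at 733 CPM in 4T1 and 344 CPM in 67NR, against 699 CPM in naive cells. The low values thus lay in 67NR for these 3 genes, with 4T1 between or near naive.

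Ifit3b (3.38 CPM in 67NR, 17.6 CPM in naive) and Ifit3 (15.9 and 55.9 CPM) followed the same order. At the other end Ifitm3 (4060.5 CPM in 4T1, 3789 in 67NR, 3635 in naive) and Ifi27l2a (3599, 3806 and 3537 CPM in the same groups) were slightly higher in both tumour groups, and these 2 genes make up most of the summed share. Of the 2 monocyte clusters, that led by Cd74 and Ms4a6d had 19 of 27 members lower in 67NR over naive (6.37% of all genes) and that led by Vcan 8 of 24 (11.2%). Set against 67NR, 4T1 monocyte-like cells had 10 of 29 members higher (6.38% of all genes) and 0 lower (4.7%), with Isg15, Ifit1, Ifit3 and Rsad2 leading at log2 ratios of 1.09, 1.07, 0.98 and 0.93.

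Neutrophil-like cells of both tumour groups had lower shares than naive ones, 0.851% in 4T1 (271 cells) and 0.938% in 67NR (836), against 1.32% in naive cells (719). Many other genes were also lower, and the median log2 ratio over all genes was -0.05 in 4T1 and -0.30 in 67NR. In 4T1 over naive 13 of 29 members were lower (21.2% of all genes) and 5 higher (16.4%), and in 67NR over naive 18 of 28 (28.0%) and 1 (6.94%). The member median was -0.56 in 4T1 and -0.79 in 67NR. Relative to the all-gene median, 8 were lower in 67NR, a count given without the percent of all genes. Rsad2 was at 283 CPM in 4T1 and 397 CPM in 67NR, against 999 CPM in naive cells, and Isg15 at 1559 CPM in 4T1 and 1953 CPM in 67NR, against 3441 CPM in naive cells. Ifit3 was at 19.9 CPM in 4T1 and 60.4 CPM in 67NR, against 133 CPM in naive cells.

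The 5 members higher in 4T1 neutrophil-like cells were Ifi44, Zbp1, Dhx58, Ifitm3 and Stat2, at log2 ratios of 2.08, 1.14, 0.84, 0.72 and 0.69, and the 1 higher in 67NR was Zbp1. Zbp1 was at 148 CPM in 4T1 and 112 CPM in 67NR, against 67.2 CPM in naive cells, and Ifitm3 at 2676 CPM (4T1) and 1882 CPM (67NR, under 1.5-fold), against 1621 CPM (naive). The clusters of the class differed between conditions. That led by Acod1 and Clec4d held 7.75% of 4T1, 22.7% of 67NR and 54.5% of naive cells, and that led by Ifitm1 and S100a9 75.6%, 7.42% and 1.53%. Median UMIs per cell were 6246 in 4T1, 5285 in 67NR and 3518 in naive cells.

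Within the Acod1 cluster the 67NR difference was small, with a share of 1.61% in 67NR and 1.47% in naive cells and 1 of 27 members lower (8.64% of all genes). The same cluster of 4T1 cells (21 cells) had 0.817%, with 15 of 27 lower (25.8%). In the cluster led by S100a9 and S100a8 9 of 27 were lower in 67NR over naive (13.5%).

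**Figure D4:**
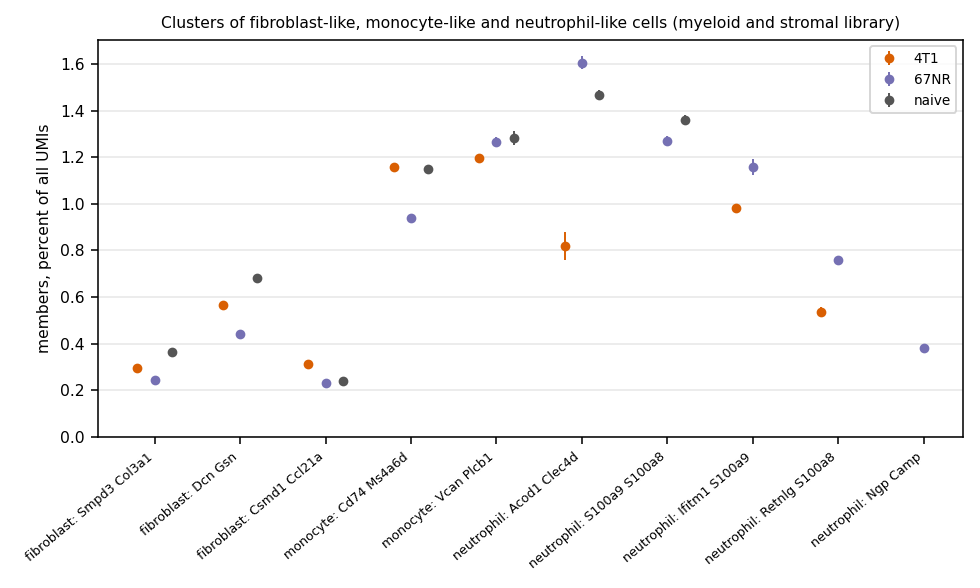
Percent of UMIs from the 29 measured members in each cluster of the fibroblast-like, monocyte-like and neutrophil-like cells of the myeloid and stromal library, by condition. The neutrophil cluster led by Acod1 and Clec4d stands at 0.817% in 4T1, 1.61% in 67NR and 1.47% in naive cells.

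Macrophage-like cells differed between the tumours, on 86 4T1, 24 67NR and 46 naive cells. The share was 0.892% in 4T1 and 0.557% in 67NR, against 0.675% in naive cells. In 4T1 over 67NR 16 of 25 members were higher (12.7% of all genes) and 2 lower (10.2%). Irf7 was at 712 CPM in 4T1 and 255 CPM in 67NR, against 364 CPM in naive cells. Ifih1 went the other way, at 103 CPM in 4T1 and 273 CPM in 67NR, against 257 CPM in naive cells, as did Oasl1 (157 CPM in 4T1, 369 in 67NR, 227 in naive). Both tumour groups were below naive for Ifit1 (16.7 CPM in 4T1, 15 in 67NR, 74.2 in naive) and Rsad2 (86.3, 54 and 182 CPM in the same groups).

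Over naive, 5 members were higher and 5 lower of 27 in 4T1 macrophage-like cells (8.56% and 12.5% of all genes), and 2 and 10 of 22 in 67NR (8.14% and 13%). Their median log2 ratio was 0.07 in 4T1 and -0.54 in 67NR.

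Dendritic-like cells differed between subsets. cDC2-like cells had 0.299% in 4T1 and 0.296% in 67NR, against 0.274% in naive cells, with 5 members higher and 2 lower of 22 in 4T1 (10.4% and 9.91% of all genes) and 2 and 4 of 22 in 67NR (7.04% and 9.98%). The median log2 ratio was 0.15 in 4T1, with a range over the alternatives from -0.08 to 0.15, and -0.13 in 67NR. Ifih1 was lower in both, at 20.7 CPM in 4T1 and 33.2 CPM in 67NR, against 57.6 CPM in naive cells. Stat2, the interferon-specific STAT, was at 71.4 CPM in 4T1 and 30.7 CPM in 67NR, against 28.3 CPM in naive cells. Migratory dendritic-like cells had 0.115% in 4T1 and 0.150% in 67NR, against 0.116% in naive cells, ratios of 0.997 (0.954 to 1.04) and 1.30 (1.25 to 1.36) and medians of -0.03 and 0.27, with 6 of 20 members higher in 67NR (11.0%) and 3 of 21 in 4T1 (11.0%). Lower were 1 in 67NR (9.81%) and 5 in 4T1 (8.99%). Rsad2 was lower in both, at 10.1 CPM in 4T1 and 9.93 CPM in 67NR, against 27.1 CPM in naive cells.

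**Figure D5:**
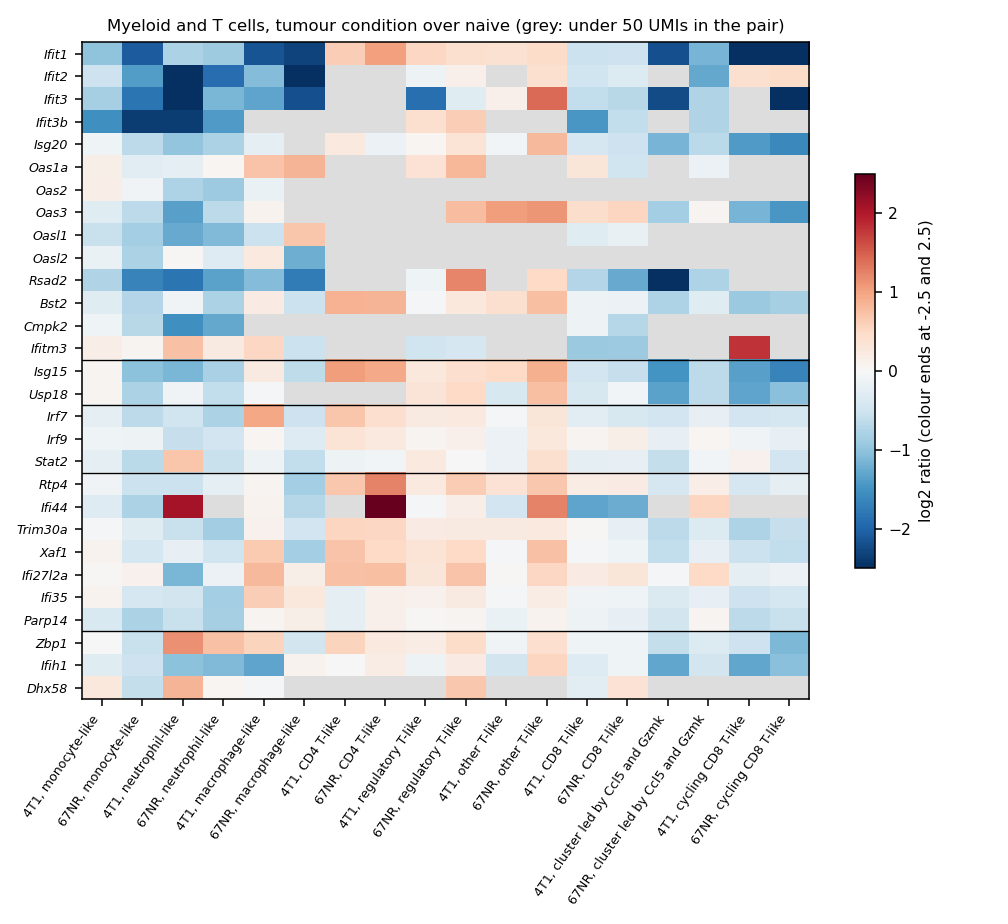
Log2 ratio of each member's CPM in 4T1 or 67NR cells over naive cells in monocyte-like, neutrophil-like, macrophage-like and T cell groups; grey marks members with under 50 UMIs. The 67NR column of monocyte-like cells reaches -2.38 (Ifit3b) and the CD4 T-like columns hold Isg15 at 1.04 (4T1) and 0.94 (67NR).

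CD4 T-like cells had higher member levels in both tumour groups. Their share was 0.469% in 4T1 (314 cells) and 0.479% in 67NR (304), against 0.293% in naive cells (153), ratios of 1.60 (1.55 to 1.66) and 1.63 (1.58 to 1.69). In 4T1 7 of 15 members were higher and 0 lower (6.8% and 4.22% of all genes), and in 67NR 6 and 0 of 16 (6.15% and 4.79%), with median log2 ratios of 0.56 and 0.47. Ifi27l2a was at 3692 CPM in 4T1 and 3776 CPM in 67NR, against 2233 CPM in naive cells. Isg15 was at 240.4 CPM in 4T1 and 225 CPM in 67NR, against 117 CPM in naive cells. Bst2 was at 88.9 CPM in 4T1 and 88.1 CPM in 67NR, against 48.6 CPM in naive cells.

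For these 3 genes the 2 tumour groups lay close together and above naive CD4 T-like cells. Irf7, Xaf1 and Rtp4 were the other members past 1.5-fold with an interval excluding no change in 4T1, at log2 ratios of 0.70, 0.72 and 0.68, and Ifi44, Rtp4 and Ifit1 those in 67NR, at 2.83, 1.24 and 1.02. Finer clustering (Leiden resolution 2) left 1 member higher in 4T1. The summed monocyte markers made up 0.00985% of UMIs in 4T1, 0.00802% in 67NR and 0.0105% in naive CD4 T-like cells, and their part was not tested.

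Regulatory T-like cells had 0.431% in 4T1 (480 cells) and 0.548% in 67NR (519), against 0.361% in naive cells (418). Of 25 members measured in 67NR over naive, 7 were higher and 0 lower (3.53% and 4.34% of all genes), and in 4T1 0 and 1 of 23 (3.13% and 2.94%). Over members, the median log2 ratio was 0.18 in 4T1 and 0.34 in 67NR. Ifi27l2a was at 3178 CPM in 4T1 and 4203 CPM in 67NR, against 2572 CPM in naive cells. Rsad2 was at 5.85 CPM in 4T1 and 14.7 CPM in 67NR, against 6.29 CPM in naive cells, so only 67NR stood above naive for it. Ifit3 was the 1 member lower in 4T1, at 4.15 CPM, against 12.4 CPM in 67NR and 15.2 CPM in naive cells.

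Cycling regulatory T-like cells had 0.275% in 4T1 and 0.351% in 67NR, against 0.245% in naive cells, with 3 of 18 members higher in 67NR (3.44% of all genes) and 0 of 15 in 4T1 (2.78%). Lower were 0 in 67NR (3.33%) and 1 in 4T1 (3.09%). Other T-like cells, which carried T cell genes but passed no marker limit for a subset, had 0.247% in 4T1 and 0.340% in 67NR, against 0.235% in naive cells. There 9 of 21 members were higher in 67NR (2.88%) and 1 of 19 in 4T1 (3.4%), with 0 (3.89%) and 0 (2.98%) lower. Ifit3 was at 13.7 CPM in 4T1 and 33.6 CPM in 67NR, against 12.6 CPM in naive cells.

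In CD8 T-like cells the summed share and the median over members differed in sign. CD8 T-like cells had 0.232% in 4T1 (816 cells) and 0.241% in 67NR (725), against 0.224% in naive cells (771), with 5 of 27 members lower in 4T1 (2.31% of all genes) and 6 of 27 in 67NR (2.28%), and 0 higher in either (2.02% in 4T1 and 2.0% in 67NR of all genes). Rsad2 was at 4.90 CPM in 4T1 and 3.42 CPM in 67NR, against 8.16 CPM in naive cells, and Ifit3 at 12.4 and 11.7 CPM, against 18.9 CPM in naive cells. The ratio of shares was 1.03 in 4T1 and 1.08 in 67NR, while the median log2 ratio was -0.27 and -0.20, ranging over the alternatives from -0.62 to 0.13 and from -0.23 to 0.23. Ifi27l2a was higher by log2 0.20 in 4T1 and 0.30 in 67NR.

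Cycling CD8 T-like cells had 0.158% in 4T1 (131 cells) and 0.164% in 67NR (126), against 0.214% in naive cells (62). Of 19 members 9 were lower in 4T1 (3.44% of all genes) and 1 higher (4.13%), and in 67NR 10 of 19 (3.46%) and 0 (5.74%). Isg15 was at 42.3 CPM in 4T1 and 33.9 CPM in 67NR, against 108 CPM in naive cells, and Ifit1 at 2.54 and 2.45 CPM, against 27.5 CPM in naive cells.

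The unnamed T cell cluster led by the chemokine gene Ccl5 and the granzyme gene Gzmk was the highest naive group of the T cell library for 11 of 19 members. These 19 are the members with at least 50 UMIs in their highest group, so the count is a description only. The share of the cluster was 0.230% in 4T1 (197 cells) and 0.336% in 67NR (230), against 0.306% in naive cells (143). In 4T1 over naive 13 of 19 members were lower (2.44% of all genes) and 0 higher (4.94%), but 1 was lower when interferon genes were kept in the clustering. Over the same naive cells, 67NR had 8 of 23 lower (2.57%) and 0 higher (3.94%). The median log2 ratio of 67NR over naive in this cluster was -0.30 and ranged from −0.36 to 0.18 over the alternatives. Rsad2 was at 3.32 CPM in 4T1 and 19.5 CPM in 67NR, against 33.1 CPM in naive cells. Ifit1 was at 20.3 CPM in 4T1 and 41.7 CPM in 67NR, against 93.8 CPM in naive cells, an order of 4T1, 67NR and naive from low to high.

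An unnamed cluster led by S100a4 and Trat1 had 0.273% in 4T1 and 0.348% in 67NR, against 0.284% in naive cells. There 0 members were higher and 2 lower of 19 in 4T1 (3.8% and 5.09% of all genes), and 1 and 3 of 19 in 67NR (2.99% and 6.13%), with Ifit3 at 10.0 CPM in 4T1 and 3.96 CPM in 67NR, against 25.8 CPM in naive cells.

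With 4T1 set against 67NR, the Ccl5 and Gzmk cluster had 10 of 21 members lower (2.12% of all genes) and 0 higher (3.48%), and regulatory T-like cells 4 of 25 lower (1.49%) and 0 higher (2.62%).

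NK-like and B-like cells could be compared in the myeloid and stromal library only. NK-like cells had 0.271% in 4T1 (28 cells) and 0.184% in naive cells (191), with 5 of 16 members higher (12.8% of all genes) and 2 lower (13.1%). The 5% of cells with most member UMIs held 74.6% of them in 4T1 and 58% in naive cells. Among the 28 4T1 cells this 5% was a single cell. The 4T1 counts of members and CPM values given here come from sums that carry that cell. The median share per cell was lower in 4T1, at 0.0708% against 0.0756% in naive cells. With cells thinned to an equal number of UMIs, the share was also lower in 4T1, at 0.129% against 0.138%. The median log2 ratio over members, taken from the sums, was 0.14. The higher summed share in 4T1 thus rests on a single cell and was not seen in the typical cell. Irf7 was at 341 CPM in 4T1 and 142 CPM in naive cells, and Isg15 went the other way, at 114 and 177 CPM. In 67NR the library held 8 NK-like cells and no ratio was formed.

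B-like cells had 0.0776% in 4T1 (85 cells) and 0.0704% in 67NR (89), against 0.104% in naive cells (29). Of 5 members measured in 67NR over naive 1 was higher (18.6% of all genes) and 1 lower (12.8%), and of 4 measured in 4T1 over naive 0 were higher (16.1%) and 1 lower (13.2%). Ifi27l2a was at 457 CPM in 4T1 and 264 CPM in 67NR, against 453 CPM in naive cells. Ifi35 was at 31.6 CPM in 4T1 and 46.4 CPM in 67NR, against 58.6 CPM in naive cells, on 18 naive UMIs.

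Members differed in the number of cell groups in which they were higher or lower. In 67NR over naive Rsad2 was higher in 2 and lower in 9 of the 13 groups where it was measured, Ifit3 higher in 2 and lower in 8 of 12, and Ifi27l2a higher in 5 and lower in 3 of 20. In 4T1 over naive Ifit3 was higher in 0 and lower in 8 of 11, Rsad2 higher in 1 and lower in 8 of 11, and Ifit1 higher in 2 and lower in 8 of 16. Ifi27l2a was higher in 3 and lower in 2 of 21 groups in 4T1, with a median log2 ratio of 0.01. Isg15 was higher in 2 and lower in 6 of 20 groups in 4T1, and higher in 4 and lower in 6 of 19 in 67NR, while Oas1a was higher in 3 and lower in 2 of 10 in 4T1 and higher in 3 and lower in 1 of 12 in 67NR. These genes were chosen after their values were seen. Groups of 1 library share its preparation and are not replicates.

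The ligands themselves were close to undetectable. Of 21 interferon genes, 14 had 0 UMIs in all 5 libraries. Ifnb1, which encodes interferon beta, had 43 UMIs, all in the myeloid and stromal library, and 22 of them were in 4T1 monocyte-like cells (2.05 CPM). Its highest level was 21.0 CPM in 67NR macrophage-like cells, on 7 UMIs in 24 cells. Ifng, which encodes the type II interferon of T and NK cells, had 1870 UMIs in the T cell library, 1132 (axillary) and 770 (mediastinal) in the atlases, 68 among myeloid and stromal cells and 0 in the stromal library.

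Other genes of the pathway were set beside the members in blood endothelial-like cells. In LPS over naive, 0 of 10 inducers of interferon and 0 of 8 negative regulators were at least 1.5-fold higher, and 1 inducer was lower: Tlr4, the LPS receptor, at 21.6 CPM in LPS and 38.8 CPM in naive cells. Of all genes, 4.73% were higher and 6.24% lower. Other type I interferon-induced genes had 12 of 42 higher (median log2 0.35). Genes that lean towards interferon gamma had 13 of 25 higher (median 0.61), with the chemokine genes Cxcl9 at 649.9 and 216 CPM and Cxcl10 at 982 and 337 CPM in LPS and naive cells.

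Interferon gamma-leaning genes were also counted in other cell groups. In 67NR over naive blood endothelial-like cells 12 of 26 were higher and 0 lower (5.52% and 6.43% of all genes), including the guanylate-binding protein gene Gbp6 at 109.6 CPM in 67NR and 35.2 CPM in naive cells. In 4T1 over 67NR 17 of 26 were lower (4.09%). Monocyte-like cells of 67NR mice had 15 of 23 lower (6.15%), with Cxcl10 at 28.4 CPM in 67NR and 261 CPM in naive cells. Fibroblast-like cells of the myeloid and stromal library had 21 of 24 lower in 67NR over naive (9.86%), with the GTPase gene Irgm1 at 74.6 and 214 CPM. CD4 T-like cells had 0 higher and 2 lower of 22 in 4T1 over naive (6.8% and 4.22% of all genes), beside 9 higher and 2 lower of 41 other type I genes.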

How the data were processed

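The deposited UMI counts per gene and cell are whole numbers from 10x 3′ libraries. Cell Ranger 7.0 and mm10 are named in the submitters' processing notes. Cells were kept from 500 UMIs and 250 genes upwards if mitochondrial UMIs did not exceed 10%, and those whose leading hashtag had at least 10 UMIs and at least 3 times the next were assigned to a condition. Hashtag doublets (6.98% to 17.0% of cells) were removed, and scrublet removed 7.55% in the axillary and 0 cells in the mediastinal atlas. Cells were clustered with scanpy 1.11.5 (2000 variable genes without interferon genes, 30 components, 15 neighbours, Leiden resolution 1). Clusters were named from marker lists. UMIs were summed per library, cell group and condition with at least 20 cells (50 in atlases) and given as UMIs per 1000000 (CPM) or percent. Ratio intervals are exact conditional binomial and level intervals exact Poisson, both at 95%; they cover counting error only. A 3′ UMI stands for a captured transcript end and does not grow with transcript length, so orders of genes by level are orders of captured transcripts.

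Fibroblast-like sums were tested with edgeR 4.0.16 (filterByExpr, TMM, quasi-likelihood, library as a block, Benjamini-Hochberg adjustment) and DESeq2 1.42.0. Same-numbered sums come from the same library, and their deviations from the condition means correlated at 0.658 to 0.731. On simulated counts for 12706 genes the fit recovered 48.2% of 85 genes changed by 2-fold and 93.6% of 109 changed by 4-fold, with 9 false calls. The simulated sums had no library effect and the same spread for all genes. The recovery is therefore not that of the test on the real sums. Named members are those at least 1.5-fold apart with an interval excluding no change; beyond 8, the 4 highest and 4 lowest. In cell groups treated briefly, a few of these are named. Some further members of a compared set, such as Ifitm3 and Ifi27l2a, are given for their abundance, chosen after their values were seen. Members and lists were chosen with earlier results of these data known. Between libraries 3 to 76 cell barcodes were shared, at most 0.85% of the smaller library.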

Additional observations from a re-analysis of the deposited data

Results flagged for a closer look

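In 4T1 over naive, 67NR over naive and 4T1 over 67NR, the median log2 ratio of the members had one sign in some cell groups and the opposite sign in others. The difference between groups was not tested in any of these cases. In 67NR over naive, the median was 0.53 in other T-like, 0.52 in blood endothelial-like and 0.47 in CD4 T-like cells. Against these, it was -0.93 in fibroblast-like cells of the myeloid and stromal library, -0.79 in neutrophil-like, -0.66 in monocyte-like and -0.61 in cycling CD8 T-like cells and -0.30 in the cluster led by Ccl5 and Gzmk.

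In 4T1 over naive, CD4 T-like cells had 0.56, while fibroblast-like cells of the myeloid and stromal library had -0.83, the Ccl5 and Gzmk cluster -0.65, a cluster led by Cd74 and H2-Aa -0.61 and cycling CD8 T-like cells -0.55.

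In 4T1 over 67NR, the median was above 0 in some groups of the myeloid and stromal library. It was 0.81 in an unnamed cycling cluster led by Pclaf and Top2a, 0.59 in a cluster led by Lyz1 and Mmp12 and 0.48 in monocyte-like cells. It was below 0 in blood endothelial-like (-0.69), lymphatic endothelial-like (-0.60) and migratory dendritic-like cells (-0.46), in the Ccl5 and Gzmk cluster (-0.54) and in cycling regulatory T-like cells (-0.37). The Pclaf and Top2a cluster held 43 4T1 and 23 67NR cells, with Ifit1 at 54 CPM in 4T1 and 1.88 CPM in 67NR cells and a median depth of 39382 UMIs in 4T1 and 11576 UMIs in 67NR cells. Its summed share went the other way from its median, at 0.576% in 4T1 and 0.607% in 67NR cells.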

How the results depend on the processing

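The median of 4T1 over naive blood endothelial-like cells ranged from −0.23 to 0.18 over the alternatives, that of 67NR over naive in stromal library fibroblast-like cells from −0.30 to 0.04 and that in the Ccl5 and Gzmk cluster from −0.36 to 0.18. Counts of members past 1.5-fold changed with depth, the UMI limit, the threshold and, in some groups, the clustering. The percent of all genes is not given for these settings. The counts below thus show only how the number of members changed, and not whether members stand apart from other genes. With cells thinned to 1000 UMIs, 6 of 8 members measured were higher in LPS blood endothelial-like, 4 of 9 in LPS fibroblast-like, 2 of 2 in LPS lymphatic-marker and 4 of 8 in 67NR blood endothelial-like cells. Thinned counts for CD4 T-like cells were 2 of 2 (4T1) and 1 of 2 (67NR), and for 67NR regulatory T-like cells 2 of 9. Thinned counts of lower members were 3 of 9 in 4T1 over 67NR blood endothelial-like cells, 3 of 10 in 67NR monocyte-like, 3 of 5 in 67NR and 3 of 5 in 4T1 fibroblast-like cells, 11 of 26 in 67NR neutrophil-like cells and 1 of 2 in the 4T1 Ccl5 and Gzmk cluster. Requiring 200 UMIs left 11, 7, 4 and 5 higher in LPS blood endothelial-like, LPS fibroblast-like, LPS lymphatic-marker and 67NR blood endothelial-like cells, 8 lower in 4T1 over 67NR blood endothelial-like cells, 4 and 3 higher in 4T1 and 67NR CD4 T-like cells, 2 in 67NR regulatory T-like cells and 5 lower in the 4T1 Ccl5 and Gzmk cluster. At 2-fold, 10, 7 and 1 were higher in LPS blood endothelial-like, LPS fibroblast-like and 67NR blood endothelial-like cells, 1, 3 and 1 in 4T1 CD4, 67NR CD4 and 67NR regulatory T-like cells, and 3, 6, 12, 8, 7 and 7 lower in 4T1 over 67NR blood endothelial-like, 67NR monocyte-like, 67NR and 4T1 fibroblast-like, 67NR neutrophil-like cells and the 4T1 Ccl5 and Gzmk cluster. Leiden resolution 2 left 1 member higher in 4T1 CD4 T-like cells, keeping interferon genes in the clustering left 1 lower in the 4T1 Ccl5 and Gzmk cluster, and setting ratios relative to the all-gene median left 8 lower in 67NR neutrophil-like cells. The cause of these changes was not tested, except that thinning and the higher limit leave fewer members measured.

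In the fibroblast fit, edgeR without a gene filter called 8 members in 4T1 over naive, 12 in 67NR over naive and 1 in 4T1 over 67NR. Of all 22382 genes it called 399 higher and 341 lower, 532 and 247, and 51 and 120 in the same order. In 67NR over naive, leaving out the Smpd3 cluster gave 1 call and adding that of the stromal library 5, both chosen after seeing the data. Of all genes, the former setting called 194 higher and 40 lower of 11767, and the latter 224 and 116 of 12776. With no replicate block 0 members were called, and the medians were −0.46, −0.51 and 0.29. Of 550 alternative values of the summed share ratio, 277 moved by more than the counting interval, and of 391 alternative medians 36 moved. By single library (without replicate 1 or without replicate 2) the median was −0.83 or 0.10 in 4T1 over naive, −0.93 or −0.29 in 67NR over naive and 0.14 or 0.18 in 4T1 over 67NR. With 1 sum per condition and 3′ counts, depth limits genes under 50 UMIs, among them Oas3 in blood endothelial-like cells.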

Other observations

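An unnamed myeloid cluster led by Lyz1 and Mmp12 held 23 4T1, 40 67NR and 40 naive cells, with a member share of 0.421% in 4T1 and 0.300% in 67NR, against 0.429% in naive cells. Irf7 stood at 176 CPM in 4T1 and 44.7 CPM in 67NR, against 88.4 CPM in naive cells, so the tumour groups lay on either side of naive. Ifi44 was above naive in both tumour groups, at 182 CPM in 4T1 and 124 CPM in 67NR, against 59.9 CPM in naive cells. Oasl1 was below it, at 96.5 CPM in 4T1 and 80.8 CPM in 67NR, against 295 CPM in naive cells. The cluster led by Lyz2 and Cybb, with 18 4T1 and 17 67NR cells, was too small for ratios, at 1.27% in 4T1 and 1.08% in 67NR, against 1.30% in naive cells (56).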
